A study of Mus musculus with 12 samples.

Results

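The 9 genes described here code for the B cell receptor and for proteins that define B cells. They are Cd79a, Cd79b, Ms4a1, Cd22, Blk, Pax5, Pou2af1, Blnk and Cd37, named as a list and read through every probe set that the platform annotation gives to 1 of them. They are 9 of the 12393 genes with a probe set of their own, and they hold 12 probe sets of 22626 on the array, 2 each for Ms4a1, Cd22 and Cd37 and 1 for each other gene. All mice were female nude NCR mice, which lack a working thymus and so have few mature T cells, while B cells still form in their bone marrow. Tumors were grown in 3 mice by orthotopic engraftment of 4T1, a line derived from a mouse mammary carcinoma, and 3 control mice were injected orthotopically with PBS. Lung and liver were taken on day 7, which gave 12 arrays in 4 groups of 3: lung tumor, lung control, liver tumor and liver control. The labels call the tissues of tumor-bearing mice pre-metastatic, and the question is how such organs differ from those of controls. The labels give no age and no count of tumor cells in the organs, and they do not say which lung and liver array came from 1 mouse. Values are log2 GCRMA values, in which a difference of 1 is a doubling, and with 3 arrays a group their number limits the precision.

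A B cell senses antigen through membrane immunoglobulin. The immunoglobulin has almost no tail inside the cell, so the signal passes through the Cd79a and Cd79b chains bound to it, which carry the motifs that Src family kinases such as Blk phosphorylate. Syk then binds these motifs, the adaptor Blnk links Syk to phospholipase C and Btk, and Cd22 damps the signal by recruiting the phosphatase Ptpn6. Pax5 is the transcription factor that commits precursors to the B lineage, and Pou2af1 is a coactivator of the octamer-binding factors. In lung, B cells are known to circulate through the capillary bed and to gather in lymphoid tissue along the airways.

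The surfactant gene Sftpc (1418639_at) read 15.71 to 15.87 on all lung arrays and 2.24 to 2.64 on all livers except liver control replicate 2, which read 6.54. The mean of the 8 epithelial genes was 3.51 on that array and 2.58 to 3.00 on the other livers. The hepatocyte gene Alb read 14.39 in lung tumor replicate 1 and 14.65 in lung control replicate 3, while the remaining lung arrays lay between 8.96 and 11.08. These arrays, 1 in each lung group, are called hepatocyte-rich below. The calls of members are given without them as well. The lowest value on every array was 2.044. A probe set also has its own lowest value, and "at its lowest" means within 0.05 of it. Of the 9 genes, 4 (Cd79b, Ms4a1, Cd22 and Cd37, with 5 probe sets) were above 4 on at least 3 of the 6 lung arrays and were tested there. In liver only Cd22 met that filter, at 1 probe set whose lowest value lies above 4. Cd79a, Pou2af1, Blk, Blnk and Pax5 did not pass in either tissue and are described by their values. The genes that passed include those high in tumor-bearing lungs, so no count over them stands for all 9.

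The promoters of members were read because they hold the sites of B lineage factors, and 4 are shown: those of Cd79a, Cd37 and Pou2af1, whose arrays did not overlap between the lung groups, and that of Blnk, the only one with an octamer. RefSeq promoters of GRCm38.p6, 250 bases before to 50 after the start, were available here for 6 of the 9 members. They lie at chr7:24897247-24897546 on the + strand for Cd79a, chr7:45238790-45239089 on the - strand for Cd37, chr9:51213440-51213739 on the + strand for Pou2af1 and chr19:40994172-40994471 on the - strand for Blnk. Each is written 5′ to 3′ along its gene, with matches in capitals.
Cd79a: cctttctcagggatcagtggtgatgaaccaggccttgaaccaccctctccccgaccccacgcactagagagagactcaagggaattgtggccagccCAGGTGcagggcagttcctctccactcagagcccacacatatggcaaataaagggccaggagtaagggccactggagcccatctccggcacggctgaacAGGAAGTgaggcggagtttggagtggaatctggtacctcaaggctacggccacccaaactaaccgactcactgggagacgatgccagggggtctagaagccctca
Cd37: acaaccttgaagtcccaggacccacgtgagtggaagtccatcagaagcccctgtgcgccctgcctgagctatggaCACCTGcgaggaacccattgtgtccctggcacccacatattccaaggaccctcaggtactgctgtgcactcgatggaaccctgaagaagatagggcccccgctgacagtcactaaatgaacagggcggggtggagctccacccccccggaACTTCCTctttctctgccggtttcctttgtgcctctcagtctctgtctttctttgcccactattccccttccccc
Pou2af1: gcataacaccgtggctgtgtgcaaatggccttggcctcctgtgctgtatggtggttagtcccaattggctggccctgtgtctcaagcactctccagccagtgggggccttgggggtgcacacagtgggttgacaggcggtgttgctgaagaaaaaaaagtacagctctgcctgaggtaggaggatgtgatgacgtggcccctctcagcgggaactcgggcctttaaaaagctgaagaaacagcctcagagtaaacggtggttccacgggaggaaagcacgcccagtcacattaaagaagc
Blnk: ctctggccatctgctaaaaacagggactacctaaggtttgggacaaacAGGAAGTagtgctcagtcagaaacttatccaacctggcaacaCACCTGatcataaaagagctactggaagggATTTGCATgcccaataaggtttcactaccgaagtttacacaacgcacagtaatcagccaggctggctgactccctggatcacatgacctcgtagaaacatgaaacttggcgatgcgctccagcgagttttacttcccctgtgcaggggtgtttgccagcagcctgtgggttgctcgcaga
The letters searched on both strands were the octamer ATGCAAAT, an ETS core AGGAAGT, an E box CAGGTG and EBF half-sites CCCNNGGG, and no match overlapped another. The ETS core stood in 3 of the 6 members (Cd79a, Cd37 and Blnk) and in 9.35% of 32851 promoters of the same length. The E box stood in 4 (Cd79a, Cd37, Blnk and Cd22), against 20.2% of all. The octamer stood in 1 (Blnk) against 1.74%, and the EBF half-sites in 1 (Cd22) against 13.7%. None of these letters was found in the Pou2af1 and Pax5 windows. These are matches of letters, and no binding was measured.

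In the lungs of tumor-bearing mice the receptor chain Cd79b rose 4.46-fold while Ms4a1, which codes for the B cell surface protein CD20, passed by 1 of its probe sets in the filtered table only. Of all 12 probe sets, 7 (of Cd79a, Cd79b, Ms4a1, Pou2af1 and Cd37) had every tumor array above every control array, and none had every tumor array below. Over all 22626 probe sets, 5.56% lay above without overlap, and 6.32% below. Without the 2 hepatocyte-rich arrays the same 7 probe sets lay above, against 11.1% of all probe sets. The median change over the 12 was 0.93, against 0 over all probe sets. In liver none of the 12 separated the groups in either direction, against 7.67% of all probe sets above and 12.7% below, and the median change was 0.002. Lung and liver are whole tissues, so more B cells and more RNA per B cell cannot be told apart.

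**Figure D1:**
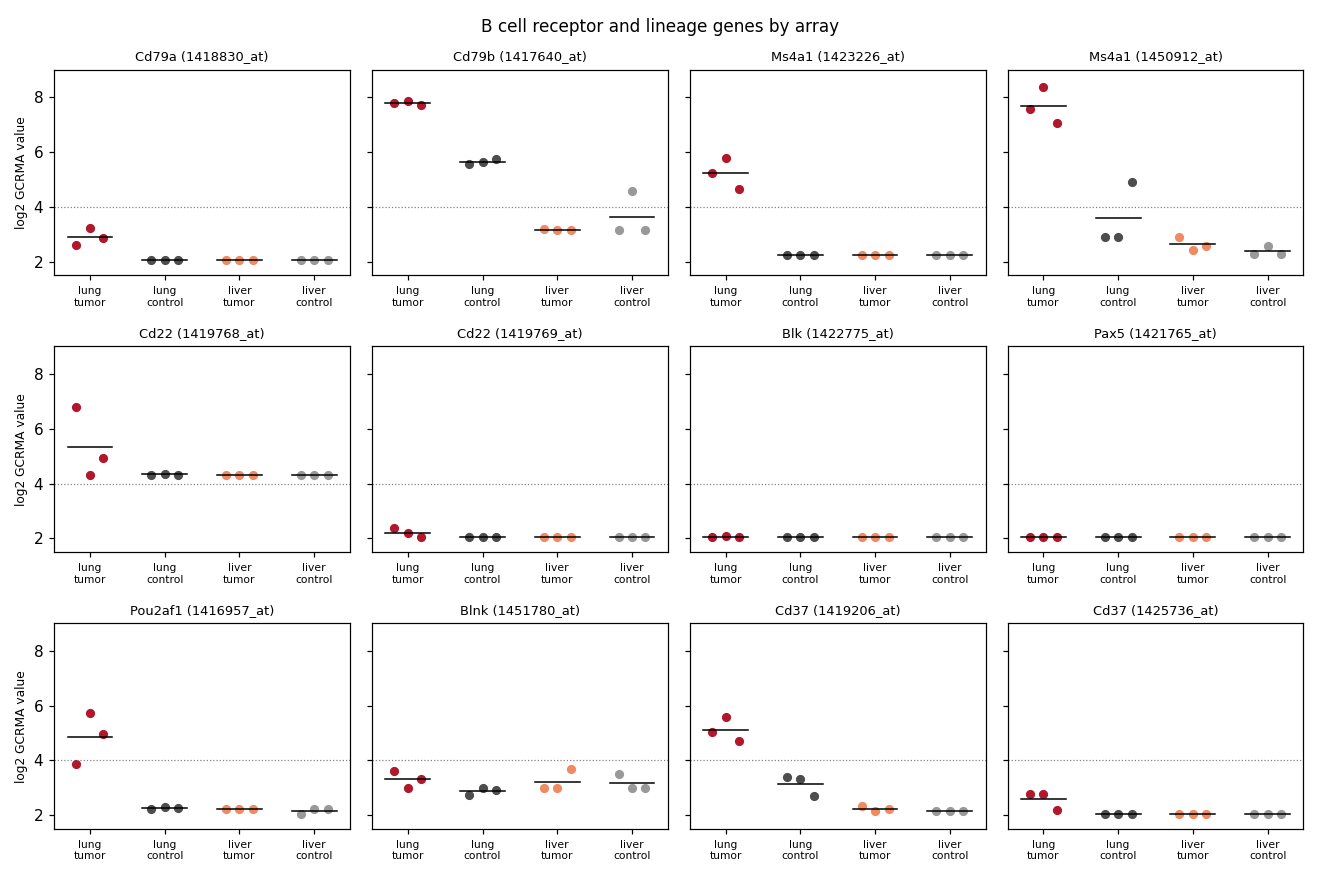
Log2 GCRMA value of each of the 12 probe sets on each array, by group, with the line at the group mean and the dotted line at 4. Tumor-bearing lungs hold the highest points of Cd79b, both Ms4a1 probe sets, Pou2af1 and Cd37, while Pax5 and Blk stay at their lowest on almost every array.

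Cd79b (1417640_at) read 7.80, 7.87 and 7.71 in tumor-bearing lungs, against 5.57, 5.62 and 5.73 in control lungs. Each group had an SD of 0.08, so the change of 2.16 (SE 0.09) was far larger than the spread between arrays (limma adjusted p = 0.00233). Over the probe sets tested in lung, 0.33% were called higher and 0.0751% lower. Without the filter Cd79b was the only member called (adjusted p = 0.0193), where 0.0309% of all probe sets were called higher. It was called in 12 of 16 alternative settings. The call ended without lung tumor replicate 1 (change 2.15, adjusted p = 0.103) and without lung tumor replicate 2 (change 2.12, adjusted p = 0.093), where no probe set was called (1467 and 1772 had an unadjusted p under 0.05 by limma). Without both hepatocyte-rich arrays the change was 2.20 and the adjusted p 0.409. In liver, Cd79b was near its lowest on 5 of 6 arrays, with 3.19, 3.17 and 3.14 in tumor-bearing mice and 3.17, 4.56 and 3.17 in control mice, and control replicate 2, the liver array with the higher Sftpc, was the only one above 4. The liver change of -0.47 became -0.002 without that array. The part of lung transcripts in that value was not tested.

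Cd79a (1418830_at), the partner chain of Cd79b, read 2.62, 3.21 and 2.87 in tumor-bearing lungs and 2.04 on all 3 control lungs and on every liver array. All 3 tumor-bearing lungs lay above the others, yet every value is under 4 and no fold is given. Tested without the filter, its change of 0.86 had a limma adjusted p of 0.287.

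Ms4a1 was read by 2 probe sets, and on both every tumor-bearing lung lay above every control lung. The first (1423226_at) read 5.22, 5.79 and 4.65 in tumor-bearing lungs, against 2.25 on each control lung, which is its lowest. Its change was 2.97 (SE 0.28, limma adjusted p = 0.0247), which as a fold against the filter value of 4 is at least 2.33. This probe set met the filter only through the 3 tumor-bearing lungs. The second (1450912_at) averaged 7.67 ± 0.66 in tumor-bearing and 3.58 ± 1.16 in control lungs (SD, n = 3 each), with 7.57, 8.37 and 7.06 in tumor-bearing lungs and 2.91, 2.89 and 4.92 in control lungs. Control replicate 3, which is 1 of the hepatocyte-rich arrays, stood above the other controls. The change of 4.09 (SE 0.64) was the largest among the 12 probe sets but did not pass (limma adjusted p = 0.0846), and without that array it was 4.76 with an adjusted p of 0.104. The call of the first probe set did not hold when any 1 lung array was left out: without a tumor array it no longer met the filter, and without a control array the adjusted p was 0.123 to 0.137. It also did not pass without the filter (adjusted p = 0.113). In liver both Ms4a1 probe sets were under 3 on all arrays.

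Cd37, a tetraspanin of B cells that other leukocytes also carry, showed the same order by its brighter probe set. 1419206_at read 5.03, 5.57 and 4.72 in tumor-bearing lungs, against 3.40, 3.34 and 2.70 in control lungs. The groups did not overlap, and the change of 1.96 (SE 0.29), at least 2.15-fold, missed the threshold (limma adjusted p = 0.0744). This probe set met the filter only through the tumor-bearing lungs. The second probe set (1425736_at) read 2.79, 2.77 and 2.19 against 2.06 or 2.07 on the control lungs, so that both groups were under 4.

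Pou2af1 (1416957_at) read 3.87, 5.73 and 4.97 in tumor-bearing lungs, against 2.23, 2.30 and 2.27 in control lungs and 2.04 to 2.23 in all livers. All tumor-bearing lungs lay above all other arrays, but only 2 arrays were above 4, so it was not tested in the filtered table. Its change was 2.59, at least 1.81-fold, with a limma adjusted p of 0.306 without the filter.

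Cd22, the inhibitory receptor, did not separate the groups. 1419768_at read 6.78, 4.33 and 4.92 in tumor-bearing lungs, against 4.32, 4.36 and 4.32 in control lungs. Tumor replicate 1 was high and tumor replicate 2 lay at the probe set's lowest value with the controls, so the change of 1.01 (SE 0.62) was within the spread (limma adjusted p = 0.56). The other Cd22 probe set (1419769_at) read 2.39, 2.22 and 2.04 in tumor-bearing lungs and 2.04 on the other arrays.

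The remaining members gave little or no signal. Blnk (1451780_at) read 3.63, 3.00 and 3.34 in tumor-bearing lungs and 2.73, 3.00 and 2.94 in control lungs, and the groups overlapped. Pax5 (1421765_at) was at 2.04 on all 12 arrays, and the kinase Blk (1422775_at) did not exceed 2.10. A value at its lowest is not a measure of absence, since a weak probe set can stay there.

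**Figure D2:**
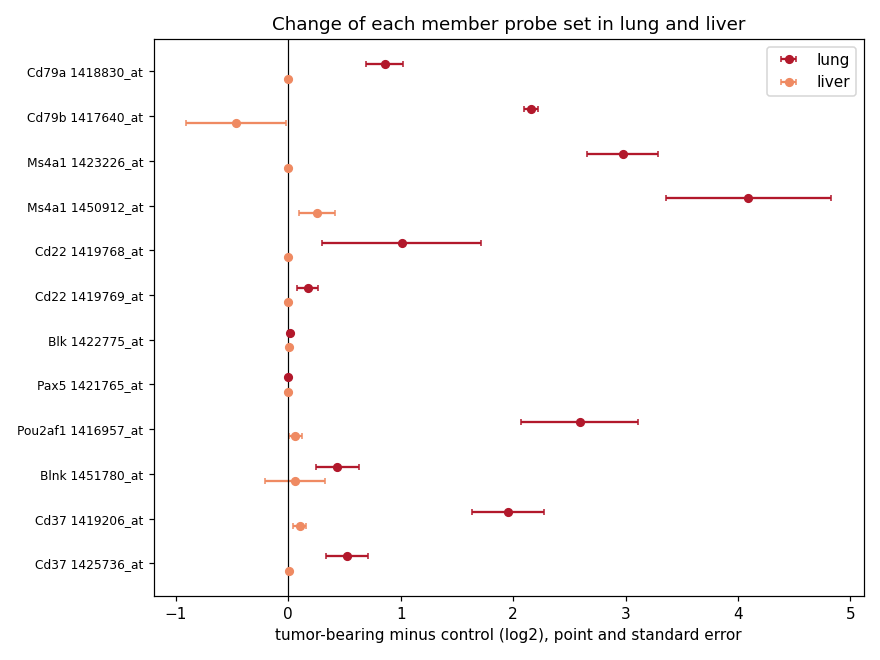
Change of each probe set, tumor-bearing minus control, on the log2 scale in lung and in liver, with the standard error from the limma fit without a filter. In lung the points run from 0 for Pax5 to 4.09 for Ms4a1 (1450912_at), and in liver they lie between -0.47 and 0.25.

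The 7 probe sets without overlap moved together over the 6 lung arrays, with Pearson correlations between pairs of 0.702 (Pou2af1 and the dim Cd37 probe set) to 0.997 (21 pairs). These describe 6 arrays that share the gap between 2 groups. Within the tumor-bearing lungs, replicate 2 was the highest for Cd79a, Cd79b, both Ms4a1 probe sets, Pou2af1 and the brighter Cd37 probe set. Replicate 1 was the highest for both Cd22 probe sets and for Blnk. The mean of the 9 genes, each at its brightest probe set, ran from 4.41 to 4.69 over tumor-bearing lungs and from 3.03 to 3.23 over control lungs, and from 2.61 to 2.70 over tumor-bearing and 2.59 to 2.78 over control livers.

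The change in lung exceeded that in liver for 3 of the genes by the interaction of tissue and tumor on all 12 arrays. The difference was 2.62 (SE 0.43, limma adjusted p = 0.0197) for Cd79b and 1.86 (SE 0.32, adjusted p = 0.0242) for Cd37 (1419206_at). For Ms4a1 it was 2.97 (SE 0.31, adjusted p = 0.00197) at 1423226_at and 3.84 (SE 0.71, adjusted p = 0.0357) at 1450912_at. Of all probe sets tested 0.823% were called in that direction and 0.506% in the other. Cd22 did not pass (1.01, adjusted p = 0.466). The livers lie at or near the lowest value of these probe sets, so a change there below detection would not be seen. Cd37 (1419206_at) and Ms4a1 (1423226_at) met the filter over all 12 arrays only through the tumor-bearing lungs, the group where they were high. Outside that group Ms4a1 (1450912_at) was above 4 only on lung control replicate 3 (4.92), so its pass of the filter rested on the tumor-bearing lungs too. Without both hepatocyte-rich arrays 0 of these genes passed, with Cd79b at an adjusted p of 0.0956 and the probe sets of Ms4a1 and Cd37 no longer meeting the filter. Without the filter on low values only Ms4a1 (1423226_at) passed, with Cd79b at 0.0506 and Cd37 at 0.0552. Without liver control replicate 2 the Cd79b difference was 2.16 (adjusted p = 0.000117). Without lung tumor replicate 1 none of the 3 genes passed: Cd79b had an adjusted p of 0.0539, the second Ms4a1 probe set 0.0697, and the other probe sets no longer met the filter. Of the other single arrays, leaving out lung tumor replicate 2 left Cd79b as the only call (adjusted p = 0.0454), and leaving out lung control replicate 2 left Ms4a1 (1423226_at, adjusted p = 0.00757). Without lung control replicate 1 Cd79b missed the threshold (adjusted p = 0.0542). Cd37 missed it without any 1 liver control array (adjusted p = 0.0503 to 0.0659) or without lung control replicate 2 (0.0509), and could not be tested without any 1 lung tumor array. With 1 array left out, the second Ms4a1 probe set passed only without lung tumor replicate 3 or lung control replicate 3 (adjusted p = 0.0466 and 0.00374).

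In control mice, 3 of the 12 probe sets were higher in control lung than in control liver without overlap, those of Cd79b, Ms4a1 (1450912_at) and Cd37 (1419206_at). This is a smaller share than the 31.6% of all probe sets. The order of the levels was lung tumor, then lung control, then liver for Cd79b and Cd37 (1419206_at), and the tumor-bearing and control livers did not separate. At the other Cd37 probe set (1425736_at) control lung and control liver did not separate. For Cd79a, Ms4a1 (1423226_at) and Pou2af1 only the tumor-bearing lungs stood out, and the other 3 groups lay at or near the lowest value.

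Among other genes of the pathway, those of signalling moved most often in lung. On the list of B cell receptor signalling genes 18 of 23 were on the array with 33 probe sets, and 15 of these had every tumor-bearing lung above every control lung, with 0 below. Over all probe sets 5.56% lay above and 6.32% below without overlap in lung. The median change over the 33 was 0.22, against 0 over all probe sets, and 4 of 13 genes tested rose while none fell. Of all probe sets tested in lung 0.33% were called higher and 0.0751% lower. Ptprc, the CD45 phosphatase of all leukocytes, read 12.03, 12.23 and 11.97 in tumor-bearing lungs against 11.10, 11.03 and 11.05 in control lungs (change 1.02, limma adjusted p = 0.0268). Syk, the kinase that binds phosphorylated Cd79 chains and that myeloid cells also use, averaged 8.98 ± 0.08 against 7.97 ± 0.19 at 1418261_at (change 1.02, adjusted p = 0.0453). Pik3cd, a catalytic subunit of phosphoinositide 3-kinase in leukocytes, averaged 6.32 ± 0.10 against 4.40 ± 0.32 (change 1.92, adjusted p = 0.023). Fcgr2b, the inhibitory receptor for immunoglobulin G on B cells and myeloid cells, averaged 7.80 ± 0.20 against 6.66 ± 0.14 at 1451941_a_at (change 1.14, adjusted p = 0.0453). None of the 4 is specific to B cells. Without both hepatocyte-rich arrays, or without lung tumor replicate 1 or 2, 0 probe sets were called in lung, these and those named below included (1152 to 1772 had an unadjusted p under 0.05 by limma). Ptpn6, the phosphatase that Cd22 recruits, had a change of 0.67 at 1460188_at that did not pass (adjusted p = 0.255). Btk did not exceed 3.32, and its groups overlapped. In liver none of the 13 signalling genes tested passed, and 4 of the 33 probe sets lay above and 1 below without overlap, against 7.67% and 12.7% of all probe sets.

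**Figure D3:**
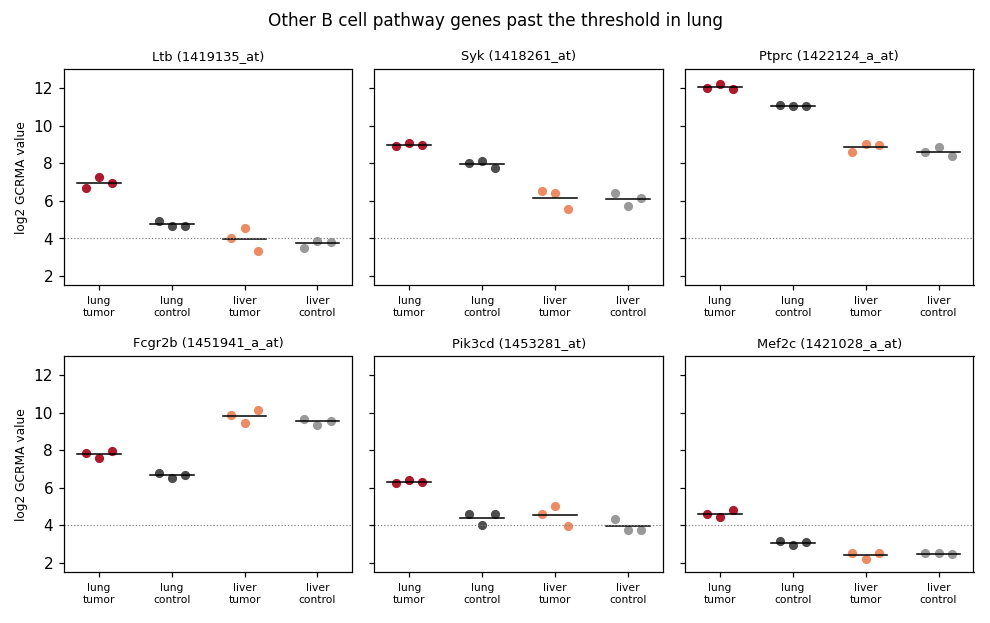
Log2 GCRMA value by array and group of the 6 other B cell pathway genes past the threshold in lung, with the line at the group mean and the dotted line at 4. In each panel the 3 tumor-bearing lungs lie above the 3 control lungs, while tumor-bearing and control livers overlap.

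Of the surface and co-receptor list 14 of 17 genes were on the array with 20 probe sets, 5 above and 0 below without overlap in lung, against 5.56% and 6.32% of all probe sets, and the median change was 0.07. Ltb, the lymphotoxin beta chain of lymphocytes that organises lymphoid tissue, rose, the only gene called of 4 tested. It read 6.67, 7.25 and 6.94 in tumor-bearing lungs, against 4.93, 4.66 and 4.64 in control lungs (change 2.21, limma adjusted p = 0.0177). The other 4 probe sets without overlap, of Tnfrsf13b, Fcrla, Fcer2a and Cd72, had changes of 1.13, 0.44, 0.18 and 0.19, and all were under 4 on the lung arrays and not tested. Cr2 and Ly6d were at their lowest on all lung arrays.

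Of the B lineage transcription factors 15 of 17 were on the array with 31 probe sets, 5 above and 3 below without overlap in lung, against 5.56% and 6.32% of all probe sets, at a median change of 0. Mef2c rose as the only one of 8 genes tested, with 4.62 ± 0.18 in tumor-bearing and 3.07 ± 0.10 in control lungs at 1421028_a_at (change 1.55, limma adjusted p = 0.0177). This probe set met the lung filter only through the tumor-bearing lungs, where it was high. Mef2c is also a gene of muscle and endothelium, and its other 4 probe sets, which read 4.19 and above in lung, did not pass (adjusted p of 0.0607 or more). Spib and Pou2f2 were at their lowest on the lung arrays, and Ebf1 overlapped on every probe set. In liver Bcl6, a repressor that guides germinal centre B cells and that hepatocytes also express, fell to 3.51 ± 0.25 in tumor-bearing mice, against 5.40 ± 0.18 in control mice at 1450381_a_at (change -1.88, adjusted p = 0.029), where 0.939% of probe sets tested were called lower and 0.593% higher. It was the only gene of the 7 B cell lists called in liver, at a probe set that met the liver filter only through the control livers. Without liver tumor replicate 2, or without any 1 liver control array, 0 probe sets were called in liver, Bcl6 included (2369 to 3205 had an unadjusted p under 0.05 by limma).

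Immunoglobulin genes varied more between arrays than the receptor chains did. None of the 6 genes of the immunoglobulin and plasma cell list tested in lung passed (11 of 19 on the array, 33 probe sets, median change 0). Of these probe sets 7 lay above and 2 below without overlap, against 5.56% and 6.32% of all probe sets. In liver 7 of the 33 lay above and 0 below, against 7.67% and 12.7% of all probe sets, and none of the 4 genes tested passed. Igha, the heavy chain of immunoglobulin A, read 5.67, 7.21 and 6.63 in tumor-bearing lungs, against 2.06, 3.16 and 3.11 in control lungs at 1421653_a_at (change 3.73, limma adjusted p = 0.0528). This probe set met the filter only through the tumor-bearing lungs and stayed at 2.42 or under in all livers. Ighm, the heavy chain of immunoglobulin M, read 10.36, 9.56 and 10.34 in tumor-bearing lungs and 5.34, 7.30 and 9.35 in control lungs at 1425324_x_at (change 2.76, adjusted p = 0.34). The spread of the controls there was larger than the change. The livers showed a like range, with 10.62, 10.52 and 8.93 in tumor-bearing mice, against 5.21, 7.53 and 9.38 in control mice (change 2.65, adjusted p = 0.21). Ighm has further probe sets that did not follow: 1427351_s_at read 7.26, 8.25 and 8.88 in tumor-bearing lungs, against 9.60, 8.38 and 7.46 in control lungs. Probe sets ending in _x, _s or _a can match several related sequences, so the identity of each immunoglobulin signal is uncertain. Jchain, which joins the chains of secreted immunoglobulin A and M, read 8.48, 8.29 and 9.16 in tumor-bearing lungs against 7.38, 7.19 and 7.48 in control lungs (change 1.29, adjusted p = 0.121).

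**Figure D4:**
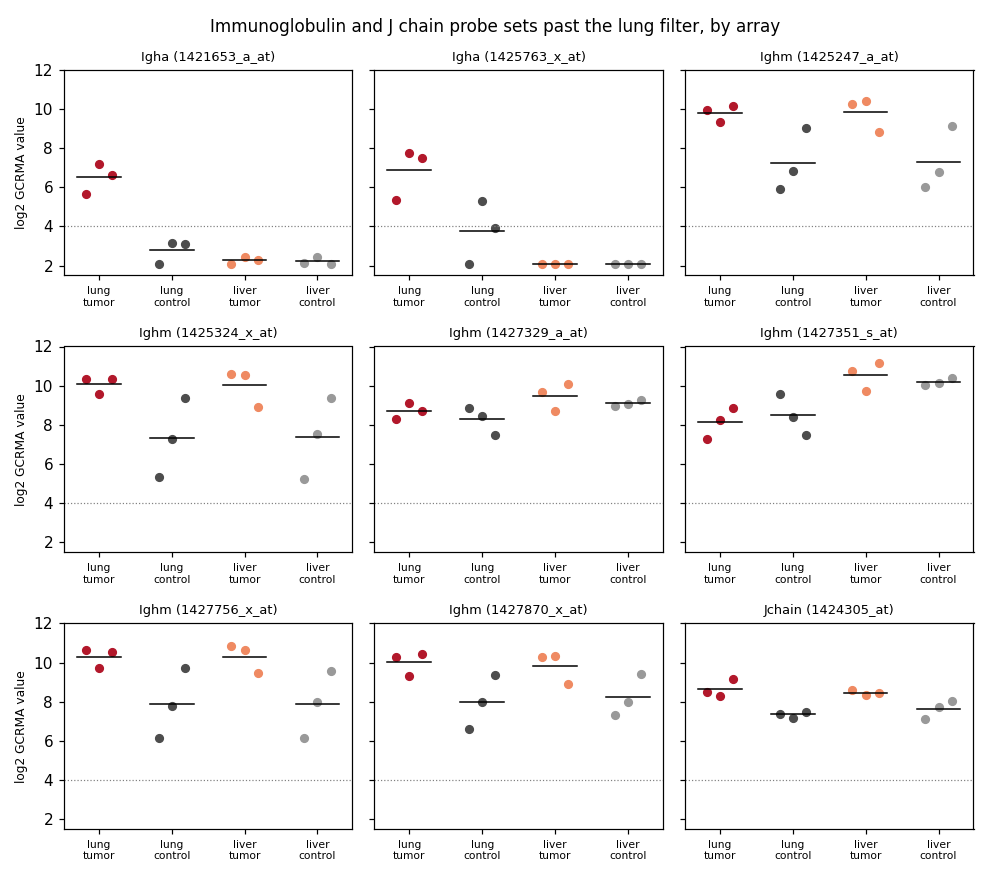
Log2 GCRMA value by array and group of the 9 Igha, Ighm and Jchain probe sets past the lung filter, with the line at the group mean and the dotted line at 4. Control arrays of 4 Ighm probe sets spread widely in both tissues, and both Igha probe sets shown stay at or below 2.42 in liver.

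Genes of B cell precursors, of attraction and survival signals and of proliferation had no call in lung, where 0.33% of probe sets tested were called higher and 0.0751% lower. Over all probe sets 5.56% lay above and 6.32% below without overlap. Of 10 precursor genes on the array, with 16 probe sets, none separated the groups, and Vpreb1, Igll1, Rag1 and Rag2, which mark developing B cells, were at their lowest on all lung arrays. The 2 precursor genes tested, Kit (change -0.70, adjusted p = 0.463 at 1415900_a_at) and Cd93 (change -0.23, adjusted p = 0.53 at 1419589_at), are also genes of other cells. Of 7 attraction and survival genes, with 10 probe sets, none separated the groups, and Cxcl12 changed by -0.24 (adjusted p = 0.688) and Tnfsf13b, the survival factor BAFF, by 0.20 (adjusted p = 0.68). Of 8 germinal centre and proliferation genes, with 14 probe sets, 4 probe sets lay above without overlap. The 2 with the largest change were Mki67 (6.71 ± 0.57 against 5.03 ± 0.56, change 1.68, adjusted p = 0.186) and Rrm2 (change 1.19, adjusted p = 0.204 at 1434437_x_at). In liver 5 of the 14 lay above and 0 below without overlap, against 7.67% and 12.7% of all probe sets, with none called. The median change over the 14 was 0.43 in liver and 0.08 in lung.

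Markers of other cells moved in the same lungs. Over all probe sets 5.56% lay above without overlap in lung, and of those tested 0.33% were called higher. Of 14 neutrophil probe sets 13 lay above without overlap, 6 genes rose, and the mean of the 13 genes ran from 8.59 to 9.25 in tumor-bearing and from 5.30 to 6.02 in control lungs. The named calls were Mmp9 (change 5.41, limma adjusted p = 0.000518 at 1448291_at), Mmp8 (4.03, adjusted p = 0.00233), Ltf (6.35, adjusted p = 0.00339) and Camp (6.49, adjusted p = 0.0177). Of 25 T and NK cell probe sets 3 lay above, and the mean of the 18 genes overlapped, with 3.54 to 4.28 in tumor-bearing and 3.57 to 3.81 in control lungs. The defining T cell gene Cd3d read 2.99, 3.20 and 2.84 in tumor-bearing lungs and 2.04 in control lungs, while Cd3e, Cd4, Cd8a and Cd8b1 were at or near their lowest. Monocyte and macrophage genes had 8 of 21 probe sets above and none called, led by Itgam (2.84, adjusted p = 0.0701) and Ccr2 (2.40, adjusted p = 0.11). Dendritic cell and MHC class II genes had 4 of 14 above and none called, led by Ciita (1.29, adjusted p = 0.468) and H2-Eb1 (1.07, adjusted p = 0.0528). Of 8 mast cell and basophil probe sets 1 lay above and 0 below without overlap, at a median change of 0, and none was called. That 1 was of the basophil protease gene Mcpt8, the only gene of the list tested. Mcpt8 read 6.72 ± 1.43 in tumor-bearing lungs and 2.04 on all control lungs (adjusted p = 0.0744). It met the filter only through the tumor-bearing lungs. The part of these cells in the changes of the shared signalling genes was not tested.

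Hepatocyte genes had no probe set without overlap in lung, and their mean ran from 4.48 to 10.45 in tumor-bearing and from 4.35 to 11.63 in control lungs, with Cyp2e1 at a change of -2.11 (adjusted p = 0.684) and Fga at -1.40 (adjusted p = 0.864). Cardiac genes likewise had none (6.28 to 9.40 against 4.24 to 10.18), with Myl4 at 0.94 (adjusted p = 0.908) and Tnni3 at -0.75 (adjusted p = 0.921). Of 10 epithelial probe sets 1, of Foxj1, lay below without overlap, against 6.32% of all probe sets. Among these genes Foxj1 changed by -2.31 (adjusted p = 0.206) and Sftpd by 0.07 (adjusted p = 0.895). Of 7 erythroid and platelet probe sets 1, of Epor, lay above without overlap, with a change of 0.07, against 5.56% of all probe sets above. Among these genes Gp9 changed by -1.80 (adjusted p = 0.625) and Alas2 by -1.11 (adjusted p = 0.533). Of T and NK genes tested, Zap70 (-0.90, adjusted p = 0.643) and Nkg7 (0.57, adjusted p = 0.758) had the largest changes.

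**Figure D5:**
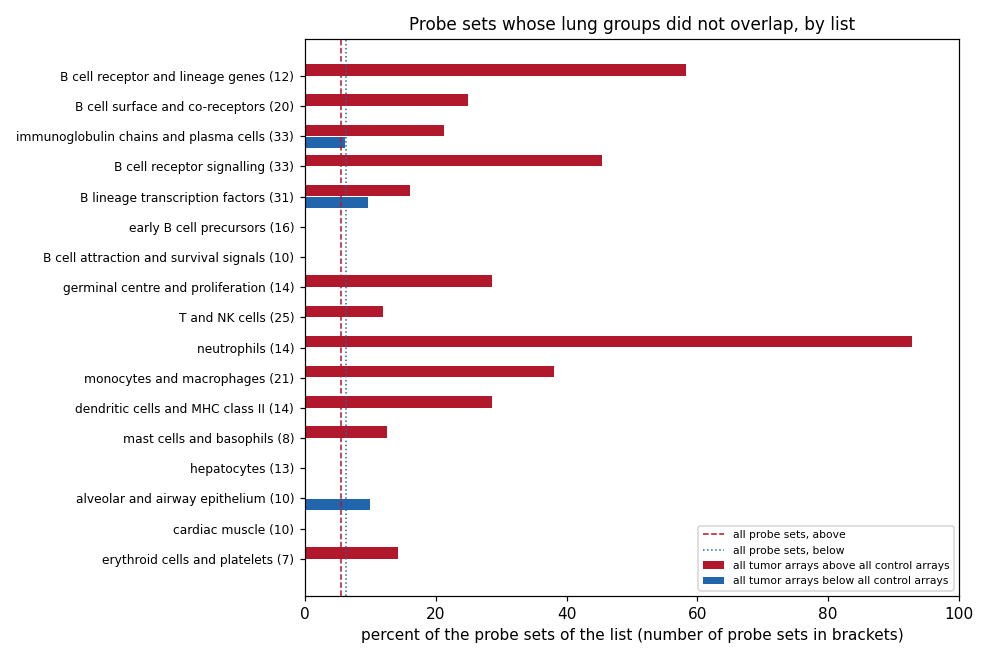
Percent of the probe sets of each list for which all tumor-bearing lungs lay above (red) or below (blue) all control lungs, with the dashed and dotted lines at 5.56% and 6.32%, the shares over all probe sets. The B cell receptor and lineage genes stand at 7 of 12, the signalling list at 15 of 33 and the neutrophil list at 13 of 14.

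The 5 genes whose pattern over the 6 lung arrays was most like the mean of Cd79b, Ms4a1, Cd22 and Cd37 were Tpd52 (Pearson r = 0.995), Srsf6, Ncaph2, Alox5ap and Ifitm6 (r = 0.989). That mean read 6.80, 6.54 and 6.10 in tumor-bearing lungs and 4.05, 4.05 and 4.42 in control lungs. Its highest array in each group was the hepatocyte-rich one. In tumor replicate 1 Cd22, which did not separate the groups, read 6.78, while Cd79b, Ms4a1 and Cd37 were highest in replicate 2. The mean thus does not follow the order of those 3 genes within the tumor-bearing lungs. Tpd52, which codes for a trafficking protein, differed by only 0.42 (11.09 ± 0.05 in tumor-bearing and 10.66 ± 0.04 in control lungs, limma adjusted p = 0.115), while the Ifitm6 difference was 7.24 (adjusted p = 0.00503). Ifitm6 was under 4 on the control lungs and met the lung filter only through the tumor-bearing lungs, where it was high. The likeness is one of shape over 6 arrays and says nothing of size. No such list was made in liver, where 1 member met the filter.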

How the data were processed

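RNA from 12 lung and liver samples was measured on Affymetrix MOE430A 2 arrays. The authors deposited log2 values per probe set, made with GCRMA per the submitters' processing notes, which also name limma, with versions not given in the sources used here. GCRMA estimates background from probe sequence and then applies quantile normalization, which compresses dim signals to a lowest value. Probe sets were named by the platform annotation (20380 with 1 symbol, 691 with several genes, 1555 not listed), and those of the members by exact symbol.

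Tumor-bearing and control arrays were compared within each tissue with limma 3.58.1 (lmFit and eBayes, no trend, not robust) in R 4.3.3, over all probe sets above 4 on at least 3 of the 6 arrays, and called at a Benjamini-Hochberg adjusted p under 0.05. The difference between tissues was tested as an interaction on all 12 arrays over probe sets above 4 on at least 3 of them. The same mice gave both tissues, but the labels do not tie numbers to mice, so the 12 arrays were treated as separate. Nothing says how extraction was batched, so p-values measure the spread between these samples. A fold against a group wholly at or under 4 is a lower bound against 4, and none is given where both groups are under it.

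Deviations of same-numbered lung and liver arrays correlated at 0.01 to 0.07 in tumor-bearing mice and at -0.01 to 0.12 in control mice. Those of same-numbered tumor and control arrays of a tissue, which come from different mice, correlated at -0.19 to 0.28. These values do not settle whether a number marks a mouse, and numbers were not used as pairs. Member genes, 7 B cell lists and 9 marker lists were chosen with earlier results of these data known. Named were all members, up to 4 genes a list past the threshold in either tissue, otherwise the 2 with the largest change among those tested in lung, and the 5 most alike; Cr2, Ly6d, Tnfrsf13b, Fcrla, Fcer2a, Cd72, Epor, Btk, Ptpn6, Ebf1, Spib, Pou2f2, Jchain, Cd3d and the other genes given at their lowest were added after their values were seen. The fit was tested on simulated data. Alternatives covered the filter, 1 probe set per gene, quantile normalization or median centring, a floor at 4, eBayes options, all 12 arrays in 1 fit, the replicate block and leaving out arrays.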

Additional observations from a re-analysis of the deposited data

Results flagged for a closer look

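For the probe sets below, the change in lung and the change in liver differed by the interaction test over all 12 arrays (limma, lung change minus liver change). Among the members these were Ms4a1 1423226_at (2.97, adjusted p = 0.00197), Cd79b (2.62, adjusted p = 0.0197), Cd37 1419206_at (1.86, adjusted p = 0.0242) and Ms4a1 1450912_at (3.84, adjusted p = 0.0357). All 4 were under 4 on every liver array except Cd79b in liver control replicate 2, so the liver change of each is bounded by the lowest value. Ms4a1 1423226_at and Cd37 1419206_at met the filter only through the tumor-bearing lungs. Outside those lungs Ms4a1 1450912_at was above 4 only on lung control replicate 3, so its pass of the filter rested on them too.

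Among other genes of the B cell lists, Mef2c 1421028_a_at (1.63, adjusted p = 0.00187), Igha 1421653_a_at (3.67, adjusted p = 0.0134) and Ltb (1.98, adjusted p = 0.0437) had the larger change in lung. Igha met the filter only through the tumor-bearing lungs and did not pass within lung. Mef2c 1421028_a_at was under 4 on the control lungs and met the lung filter only through the tumor-bearing lungs. Bcl6 1450381_a_at differed by 1.61 (adjusted p = 0.00995), with a change of -0.28 in lung, where it was under 4, and -1.88 in liver. Tumor-bearing livers were under 4 as well, so Bcl6 met the filter only through the control livers, where it was high. Xbp1, a plasma cell factor that secretory cells such as hepatocytes also use, ran the other way at 1420011_s_at (-0.77, adjusted p = 0.0238) and 1420886_a_at (-0.83, adjusted p = 0.0383). Its change at these probe sets was -0.26 and -0.19 in lung and 0.50 and 0.64 in liver, none of which passed within a tissue.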

How the results depend on the processing

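Over the alternatives no called member change turned its sign, and Cd79b kept a lung change of 2.12 to 2.29. The number of member genes called in lung was 2 (Cd79b and Ms4a1), also after quantile normalization, median centring or eBayes with trend and robust. It was 1 (Cd79b) without the filter, with the filter at 5, with 1 probe set per gene or with values under 4 set to 4, 0 or 1 with each array left out, and 0 without both hepatocyte-rich arrays. With all 12 arrays in 1 fit it was 3, with Cd37 added. In liver it was 0 in every setting. With a filter at most Cd22 (1419768_at) was tested there, and it lay at its lowest on every liver array, so this count says little of the other members. Of the 12993 probe sets tested in liver, 3313 had an unadjusted p under 0.05 by limma. Uncalled liver changes near 0 did turn, with Blnk at 0.06 and between -0.17 and 0.23 over the alternatives. For Ms4a1 the floor at 4 gave a lung change of 1.22 at 1423226_at. On all lung arrays 6 of 12 member probe sets were at or under 4, and on all liver arrays 10 of 12.

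Probe sets called in lung numbered 54, but 9 without the filter, 108 with trend and robust, 328 with all 12 arrays in 1 fit and 0 to 6 with each array left out. Without both hepatocyte-rich arrays the count was 0, with 1152 at an unadjusted p under 0.05 by limma. In liver they numbered 199, but 109 without the filter, 340 with the filter at 5, 556 with trend and robust, 1067 with all 12 arrays in 1 fit and 0 to 4 with each array left out. For the difference between tissues they numbered 189, 76 to 198 with each array left out and 49 without both hepatocyte-rich arrays. The cause of these shifts was not tested.

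The replicate numbers are not known to mark mice. For the difference between tissues the block joined same-numbered lung and liver arrays of tumor-bearing or of control mice. Within a tissue it joined same-numbered tumor-bearing and control arrays. Those come from different mice, so a call lost there does not bear on pairing. With a replicate block 2 probe sets were called in lung, 0 in liver and 22 for the difference between tissues, and 0 member genes were called in lung (Cd79b adjusted p = 0.0933). For the difference between tissues only Ms4a1 (1423226_at, adjusted p = 0.0369) was called among members with the block, with Cd79b at 0.0826 and Cd37 at 0.108. Unadjusted p under 0.05 counted 1468 probe sets in lung and 2995 in liver in that limma fit. Arrays correlated best with their own number in 1 or 2 of 3 cases per pair of groups.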

Other observations

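Ighm values of control mice ran alike in the 2 tissues by replicate number. At 1425324_x_at tumor-bearing lungs read 10.36, 9.56 and 10.34 and tumor-bearing livers 10.62, 10.52 and 8.93. At the same probe set control lungs read 5.34, 7.30 and 9.35 and control livers 5.21, 7.53 and 9.38, and at 1427756_x_at control lungs read 6.14, 7.80 and 9.70 and control livers 6.15, 7.99 and 9.58. The labels do not say whether a number marks a mouse, and over all probe sets same-numbered control lungs and livers deviated together at only 0.12, -0.01 and 0.07.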
